A study of Rattus norvegicus with 15 samples.

Results

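Genes of neurotransmitter receptors, of the acetylcholine enzymes *Chat* and *Ache*, and of synaptic scaffolds and synapse organizers were followed from normal adrenal medulla through hyperplasia to pheochromocytoma. They were chosen by gene symbol from the families of nicotinic and muscarinic acetylcholine, glutamate, GABA, glycine, serotonin, adrenergic, dopamine, histamine, purine, adenosine and cannabinoid receptors, and from the Dlg, Dlgap, Shank, Homer, Nlgn, Nrxn, Cbln, Lrrtm and Nptx families. The deposited tables list 8621 genes, and 77 of them belong to these families. The RNA came from the macrodissected, snap-frozen adrenal medulla of 15 Sprague-Dawley rats. WT rats (n = 5) were wildtype and 7 to 9.5 months old, HYP samples (n = 5) came from MENX rats with medullary hyperplasia at 4 to 5 months, and PCC samples (n = 5) from MENX rats with pheochromocytoma at 7 to 9.5 months. MENX rats are homozygous for a spontaneous frameshift mutation of *Cdkn1b*, the gene of the cell cycle inhibitor p27. HYP and WT rats therefore differed in genotype and in age, and the effects of these cannot be told apart. Poly-A RNA was sequenced, and each table holds only genes that the authors had called at an adjusted *p* under 0.05 for that pair of groups, so every synaptic gene described had been called at least once on these samples.

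Chromaffin cells of the adrenal medulla are innervated by cholinergic preganglionic fibres. Acetylcholine opens nicotinic receptors on them, calcium enters, and catecholamine granules are released, while muscarinic, purinergic, adenosine, adrenergic, GABA and other receptors tune this response. At synapses, scaffolds of the Dlg, Dlgap, Shank and Homer families hold receptors in place below the membrane, and organizers such as neurexins, neuroligins, LRRTMs, cerebellins and pentraxins join or assemble both sides of the contact.

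Reads counted on genes numbered 16315018 to 23831269 a sample, with medians of 19749571 in WT, 16868712 in HYP and 18753812 in PCC. Levels of single genes are given as CPM, read counts scaled to library size with all 15 samples on 1 scale, and values of single samples follow the order of replicates 1 to 5. *Cdkn1b*, whose transcript carries the mutation in MENX rats, was at 44.6 to 72.1 CPM in WT, 82.5 to 124 in HYP and 108 to 173 in PCC. The tissue was checked with marker genes. The summed level of 12 chromaffin cell markers (18 in the list) was 2060 to 9830 CPM in WT, 11500 to 16100 in HYP and 19400 to 37800 in PCC, and that of 11 neuronal markers 231 to 1050, 1640 to 2500 and 2460 to 4320 CPM. Summed over 10 adrenal cortex markers it was 28200 to 56100 CPM in WT, 12900 to 34100 in HYP and 932 to 14900 in PCC, so cortex transcripts were abundant in the macrodissected medulla of WT rats. The sums of 10 sustentacular and Schwann cell markers were 81.9 to 239, 233 to 280 and 346 to 448 CPM, those of 8 endothelial markers 547 to 680, 379 to 491 and 228 to 448 CPM, and those of 4 smooth muscle and pericyte markers (12 in the list) 51.5 to 95.1, 126 to 171 and 553 to 2280 CPM. Most of the last sum in PCC was *Rgs5* alone, at 474 to 2180 CPM against 20.6 to 30.5 in WT. Of 6 tested genes of that list, 4 were higher in PCC than in WT and 1, *Kcnj8*, was lower. Of 9 tested sustentacular and Schwann cell markers, 6 were higher and 3 lower in PCC than in WT. For 3 macrophage and leukocyte markers the sums were 37.0 to 40.8, 52.5 to 57.5 and 10.8 to 62.3 CPM, and for 2 adipocyte markers 97.9 to 238, 80.1 to 202 and 17.7 to 81.2 CPM. WT replicate 5 stood apart, with the lowest chromaffin, neuronal and Schwann cell sums of all samples. The chromaffin sums thus differed without overlap in every comparison below, although only 3 of 11 tested chromaffin markers were called for PCC vs. HYP. The cortex sums did not overlap between PCC and WT, but those of HYP overlapped with both other groups. For PCC vs. HYP, 0 of 7 tested cortex markers were called. The part of both cell types in the synaptic genes' differences was not tested. In bulk tissue, fewer cells of a type and less RNA per cell cannot be told apart.

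**Figure D1:**
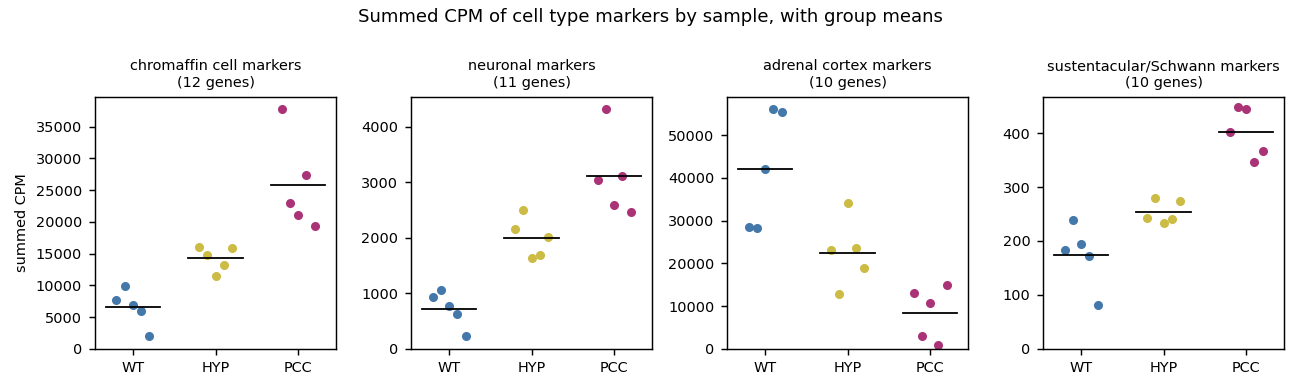
Summed CPM of the marker genes of 4 cell types in each sample (points) with the group means (lines), on linear axes that start at 0. Chromaffin and neuronal sums are higher in every HYP and PCC sample than in any WT sample, and WT replicate 5 is the lowest point in both.

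Of the 77 synaptic genes, 64 were listed for PCC vs. WT, and 57 of these passed the filter on low counts. In PCC, 35 were higher (61.4% of those tested) and 12 lower (21.1%) (edgeR quasi-likelihood fits, Benjamini-Hochberg adjusted *p* under 0.05). Over all 7001 listed genes tested, 46.7% were higher and 38.5% lower in PCC. The median log2 fold change of the synaptic genes was 1.54, against 0.44 over all genes tested. For HYP vs. WT, 43 of 47 listed genes were tested, 28 were higher (65.1%) and 4 lower (9.3%) in HYP, against a background of 39.5% higher and 32.5% lower, and the median was 1.34 against -0.37. For PCC vs. HYP, 33 of 37 were tested, 11 were higher (33.3%) and 5 lower (15.2%) in PCC, against 21.8% and 22.6% of all genes tested, and the median was 0.67 against 0.43. Scaled to the library totals instead, 15 were higher and 2 lower in PCC than in HYP. In DESeq2, run without the filter on all 37, 16 were higher and 13 lower. Against WT, lower synaptic genes thus made up a smaller share than the background in HYP and in PCC, and higher ones a larger share. For PCC vs. HYP the counts depended on single samples, and their shares are not read against the background. There, 10 genes were lower without PCC replicate 1, 3 without PCC replicate 2, 2 without PCC replicate 3, 3 without HYP replicate 1 or 2, 0 without HYP replicate 3 or 4 and 1 without HYP replicate 5, in place of 5. In place of 11 higher genes there were 5 without HYP replicate 1, 3 or 4 or PCC replicate 3, 6 without HYP replicate 2 or 5 and 7 without PCC replicate 2. The values of the 2 groups did not overlap for 41 synaptic genes (71.9%) in PCC vs. WT, 28 (65.1%) in HYP vs. WT and 20 (60.6%) in PCC vs. HYP. The background of genes without overlap was 64.7%, 54.8% and 54.3%. Without WT replicate 5, 33 synaptic genes were higher and 12 lower in PCC than in WT, and 30 were higher and 6 lower in HYP. Each comparison shares samples with the other two, so their values are given side by side and not set against each other.

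**Figure D2:**
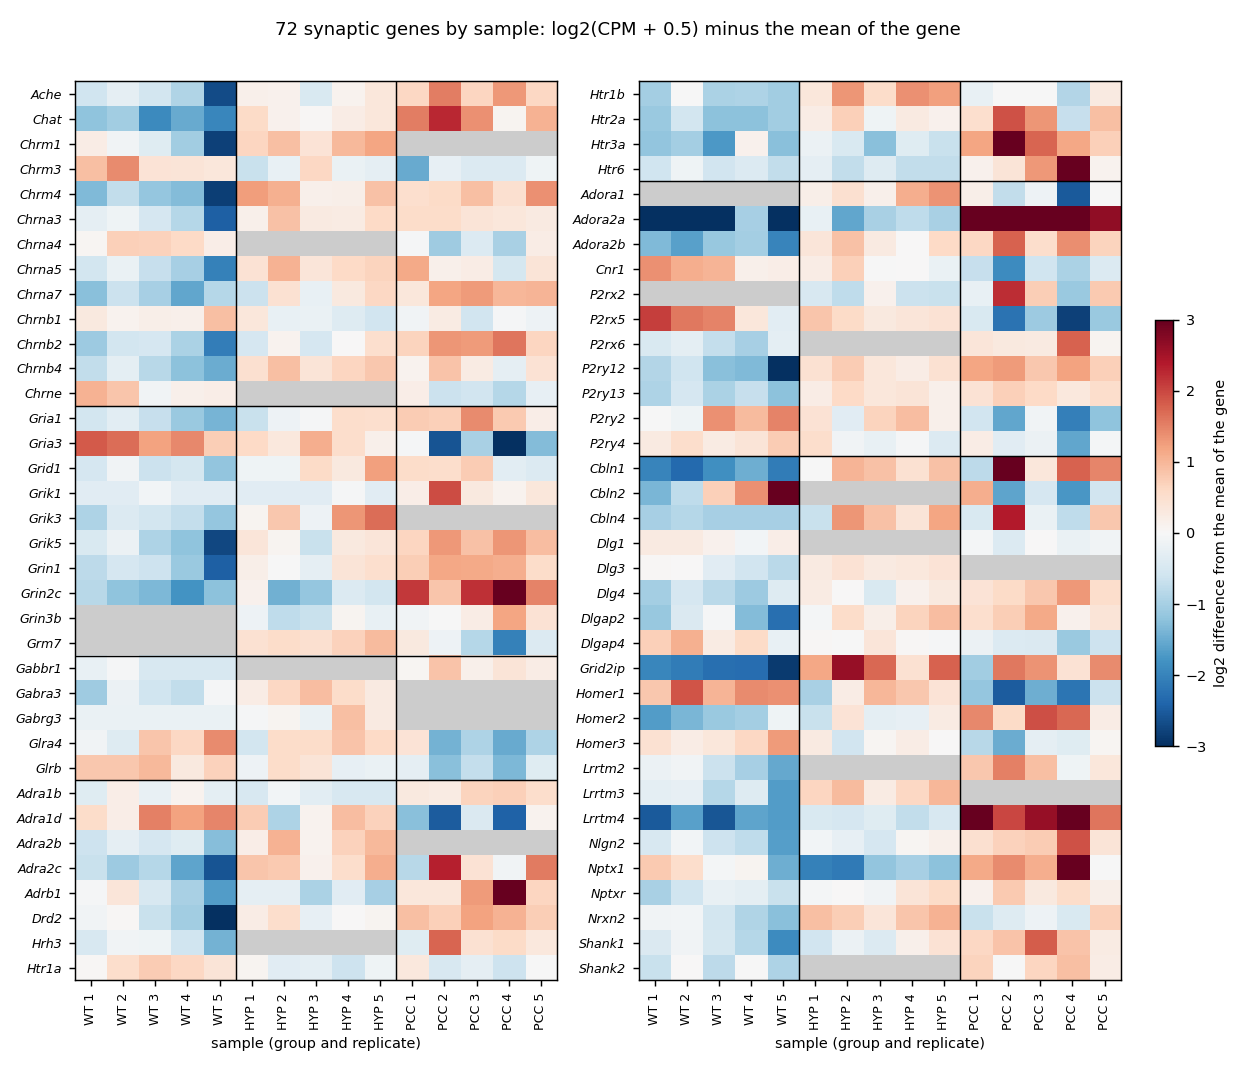
Level of 72 synaptic genes in the 15 samples, as log2(CPM + 0.5) minus the mean of the gene over the samples with values, with colours limited at -3 and 3 and grey where a table does not list the gene. Lines separate the groups of samples and, from top left to bottom right, the acetylcholine, glutamate, GABA and glycine, monoamine, purine and cannabinoid, and scaffold and organizer genes; most rows are blue in WT, and WT replicate 5 is the bluest sample in many of them.

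**Figure D3:**
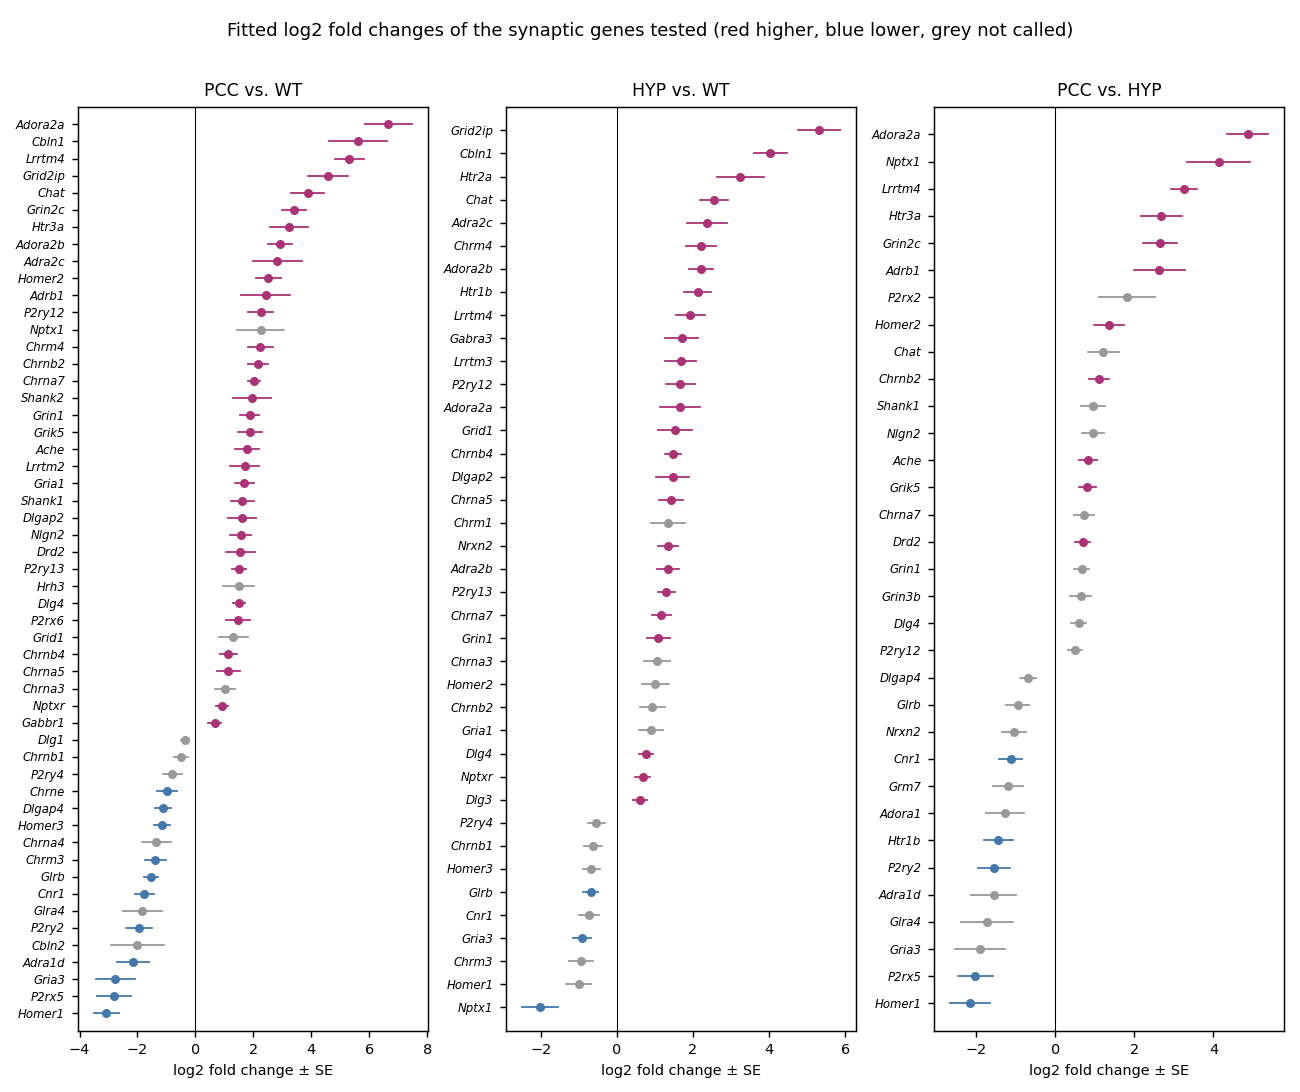
Fitted log2 fold change ± standard error of the synaptic genes tested in the 3 comparisons (53, 39 and 33 genes shown). *Adora2a* is at the top of PCC vs. WT (6.66 ± 0.82) and of PCC vs. HYP (4.86 ± 0.53), *Grid2ip* at the top of HYP vs. WT (5.31 ± 0.56), and *Homer1* at the bottom of PCC vs. WT (-3.08 ± 0.43).

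Of the 13 acetylcholine genes, 7 of 12 tested were higher and 2 lower in PCC than in WT. Among all listed genes tested, 46.7% were higher and 38.5% lower. In HYP, 5 of 10 were higher and 0 lower than in WT, beside 39.5% and 32.5% of all listed genes tested. Between HYP and PCC, 2 of 4 were higher and 0 lower in PCC, beside 21.8% and 22.6%. Whether the shares of so few genes differ from those of all genes was not tested. Nicotinic receptors are pentamers, and the receptor of chromaffin cells is assembled mainly from the subunits of *Chrna3* and *Chrnb4*, with *Chrna5* as an accessory subunit and *Chrna7* forming receptors of its own. In all 3 groups, *Chrna3* had the highest level of the nicotinic subunits per length, with a median of 47.8 FPKM (read counts scaled to gene length and library size) in WT, 86.4 in HYP and 102 in PCC. *Chrna3* (ENSRNOG00000013829, chr8:59593728-59607198 in Rn06) was at 89.9, 99.9, 77.1, 60.3 and 19.4 for the WT rats, 121, 202, 132, 129 and 164 for the HYP rats and 159, 159, 142, 139 and 131 for the PCC rats, in CPM. Every HYP and PCC sample lay above every WT sample, but the difference from WT missed the threshold in HYP (log2 fold change 1.06 ± 0.34, adjusted *p* = 0.0542) and in PCC (log2 fold change 1.02 ± 0.36, adjusted *p* = 0.0502). WT replicate 5 was far below the other WT samples, and *Chrna3* was called without it (adjusted *p* = 0.0115 in HYP and 0.00744 in PCC). *Chrnb4* (ENSRNOG00000014427, chr8:59609659-59629329) was at 56.4, 77.5, 53.1, 40.1 and 33.6 for the WT rats, 132, 179, 125, 149 and 166 for the HYP rats and 102, 172, 112, 78.0 and 129 for the PCC rats, in CPM. All HYP and PCC samples were above all WT samples, and the call was made for HYP (log2 fold change 1.47 ± 0.22, adjusted *p* = 0.0014) and for PCC (log2 fold change 1.14 ± 0.28, adjusted *p* = 0.00929). *Chrna5* (ENSRNOG00000013610, chr8:59561817-59590172) was at 8.22, 10.7, 7.49, 5.88 and 2.63 for the WT rats, 16.7, 25.9, 16.1, 19.0 and 19.8 for the HYP rats and 27.5, 13.7, 14.5, 8.37 and 16.2 for the PCC rats, in CPM. It was higher in HYP (log2 fold change 1.42 ± 0.31, adjusted *p* = 0.00882) with no overlap, and higher in PCC (log2 fold change 1.14 ± 0.40, adjusted *p* = 0.0476) with PCC replicate 4 inside the range of WT. *Chrna7* was at 24.6, 37.8, 29.6, 20 and 32.8 for the WT rats, 38.2, 81.7, 50.6, 72.8 and 91.6 for the HYP rats and 75.7, 136, 144, 118 and 121 for the PCC rats, in CPM. All HYP samples exceeded all WT samples (log2 fold change 1.16 ± 0.25, adjusted *p* = 0.00911), and all PCC samples did so by more (log2 fold change 2.02 ± 0.22, adjusted *p* = 0.000155), whereas PCC and HYP overlapped (log2 fold change 0.73 ± 0.25, adjusted *p* = 0.103).

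*Chrnb2*, whose subunit pairs with several alpha subunits in neurons, was at 4.42, 6.60, 6.80, 4.88 and 1.99 for the WT rats, 6.91, 10.7, 6.90, 10.1 and 14.3 for the HYP rats and 16.2, 25.8, 24.8, 31.1 and 15.9 for the PCC rats, in CPM. The PCC samples were above all others, and the gene was called against WT (log2 fold change 2.16 ± 0.35, adjusted *p* = 0.00104) and against HYP (log2 fold change 1.11 ± 0.26, adjusted *p* = 0.028), while HYP vs. WT missed the threshold (log2 fold change 0.93 ± 0.32, adjusted *p* = 0.071). *Chrne*, a subunit of the adult muscle receptor, was lower in PCC than in WT (log2 fold change -0.98 ± 0.33, adjusted *p* = 0.0387), whereas the muscle subunit *Chrnb1* (log2 fold change -0.50 ± 0.24, adjusted *p* = 0.156) and *Chrna4* (-1.36 ± 0.50, adjusted *p* = 0.0586), a partner of *Chrnb2* in neurons, were not called. *Chrna5* lost its call for PCC vs. WT without WT replicate 1, 3, 4 or 5 or PCC replicate 1, 2, 3 or 5 (adjusted *p* up to 0.119) and with the authors' size factors. *Chrne* lost its call for PCC vs. WT without WT replicate 1 or 2 or PCC replicate 2, 3, 4 or 5 (adjusted *p* up to 0.103) and with scaling to the library totals. *Chrnb2* lost its call for PCC vs. HYP without HYP replicate 1, 2, 3 or 4 or PCC replicate 2 or 3 (adjusted *p* up to 0.0795). *Chrna3* was called for PCC vs. WT without WT replicate 2 or 5 (adjusted *p* = 0.0388 and 0.00744). *Chrna3* was called for HYP vs. WT without WT replicate 2 or 5 or HYP replicate 1 (adjusted *p* = 0.0428, 0.0115 and 0.0443). *Chrnb2* was called for HYP vs. WT without HYP replicate 1 (adjusted *p* = 0.0493). *Chrna4* was called for PCC vs. WT without PCC replicate 5 (adjusted *p* = 0.0232).

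*Chrna5*, *Chrna3* and *Chrnb4* lie side by side on chr8 and are the 3 listed genes of a span of 67513 bases in Rn06 (chr8:59561817-59629329). Their promoters are printed because these neighbours encode subunits of the chromaffin receptor and the levels of all 3 were higher in every HYP sample than in any WT sample. The windows run from 250 bases before to 50 bases after the start of the gene, 5′ to 3′ on the gene's strand, from RefSeq on GRCr8, where 51 of the 77 synaptic genes were matched to 52 windows by symbol. Capitals mark the GC box GGGCGG, searched on both strands and so also printed as CCGCCC. The windows are chr8:64265629-64265928 on the plus strand, chr8:64311202-64311501 on the minus strand and chr8:64333060-64333359 on the minus strand.
Chrna5: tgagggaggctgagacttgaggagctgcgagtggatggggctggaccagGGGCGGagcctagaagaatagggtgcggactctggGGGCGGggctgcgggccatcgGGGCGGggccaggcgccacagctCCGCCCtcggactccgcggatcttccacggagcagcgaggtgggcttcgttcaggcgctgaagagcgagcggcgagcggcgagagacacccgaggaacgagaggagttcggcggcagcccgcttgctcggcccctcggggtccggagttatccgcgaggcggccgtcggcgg
Chrna3: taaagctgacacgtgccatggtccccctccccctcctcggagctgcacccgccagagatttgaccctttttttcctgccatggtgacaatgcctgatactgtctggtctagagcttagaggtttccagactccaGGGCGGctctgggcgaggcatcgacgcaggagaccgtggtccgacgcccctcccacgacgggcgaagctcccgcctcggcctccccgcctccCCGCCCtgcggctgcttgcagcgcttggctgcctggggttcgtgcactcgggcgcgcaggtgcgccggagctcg
Chrnb4: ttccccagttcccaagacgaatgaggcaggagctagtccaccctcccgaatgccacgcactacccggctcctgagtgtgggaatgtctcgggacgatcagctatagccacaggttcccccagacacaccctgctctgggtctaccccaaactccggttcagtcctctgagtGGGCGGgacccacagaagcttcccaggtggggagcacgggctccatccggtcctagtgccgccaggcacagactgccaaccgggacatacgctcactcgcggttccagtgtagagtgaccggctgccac
The window of *Chrna5* holds 4 GC boxes, that of *Chrna3* holds 2 and that of *Chrnb4* holds 1. GC boxes are common letters at rat promoters: 33.1% of all 33469 windows hold at least 1, and 31 of the 52 windows of synaptic genes (59.6%) do. A match describes the letters only and says nothing of a bound factor.

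*Chat*, which makes acetylcholine, was close to absent in WT and present in all MENX samples. Its levels were 0.577, 0.705, 0.158, 0.376 and 0.142 for the WT rats, 3.17, 2.20, 2.06, 2.38 and 2.65 for the HYP rats and 6.74, 11.4, 5.94, 2.13 and 4.64 for the PCC rats, in CPM. No HYP or PCC sample overlapped WT, with a 5.86-fold difference for HYP (log2 fold change 2.55 ± 0.38, adjusted *p* = 0.00149) and a 14.8-fold difference for PCC (log2 fold change 3.88 ± 0.57, adjusted *p* = 0.000621). PCC vs. HYP was not called (log2 fold change 1.22 ± 0.39, adjusted *p* = 0.0773), with PCC replicate 4 inside the HYP range. *Ache*, whose enzyme breaks acetylcholine down, was at 23.7, 30.0, 24.6, 19.2 and 5.26 for the WT rats, 40.6, 39.8, 26.1, 39.0 and 46.1 for the HYP rats and 55.6, 106, 57.1, 89.9 and 55.9 for the PCC rats, in CPM. It was higher in PCC than in WT (log2 fold change 1.78 ± 0.41, adjusted *p* = 0.00687) and than in HYP (log2 fold change 0.82 ± 0.23, adjusted *p* = 0.0484), with no overlap in either case. Of the muscarinic receptors, *Chrm4*, coupled to inhibitory G proteins, was at 0.711 to 4.68 CPM in WT, 9.09 to 20.2 in HYP and 11.5 to 21.6 in PCC, and was higher in HYP (2.21 ± 0.40 on the log2 scale) and in PCC (2.24 ± 0.42). *Chrm3*, coupled to calcium release, was the reverse, with 6.90 to 15.2 CPM in WT and 1.55 to 4.86 in PCC (log2 fold change -1.38 ± 0.36, adjusted *p* = 0.0126), and was not called for HYP vs. WT (-0.95 ± 0.31, adjusted *p* = 0.058). *Chrm1*, listed for HYP vs. WT only, was at 1.14 to 13.0 CPM in WT and 14.8 to 25.8 in HYP without overlap (log2 fold change 1.35 ± 0.45, adjusted *p* = 0.0596). *Chrm3* lost its call for PCC vs. WT with scaling to the library totals. *Ache* lost its call for PCC vs. HYP without HYP replicate 1, 2, 3, 4 or 5 or PCC replicate 2, 3 or 4 (adjusted *p* up to 0.122) and with all 15 samples in 1 fit. *Chat* was called for PCC vs. HYP without PCC replicate 4 (adjusted *p* = 0.0187). *Chrm3* was called for HYP vs. WT without WT replicate 5 or HYP replicate 3 (adjusted *p* = 0.0335 and 0.014). *Chrm1* was called for HYP vs. WT without WT replicate 1 or 5 (adjusted *p* = 0.0384 and 0.0122).

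**Figure D4:**
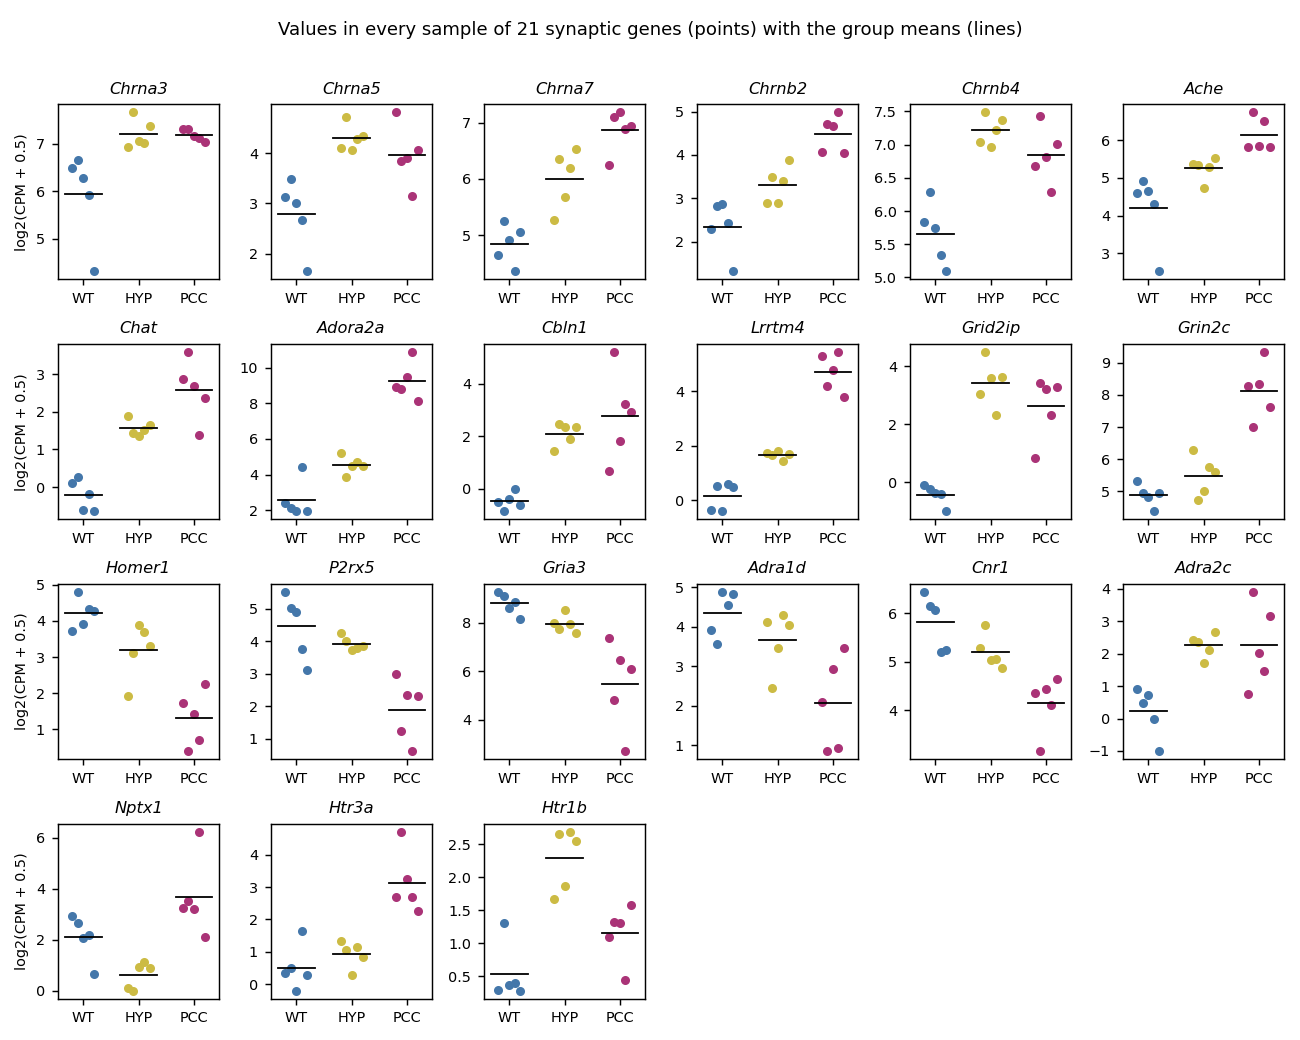
Level of 21 synaptic genes in every sample (points) with the group mean (line), as log2(CPM + 0.5); each panel has its own axis. *Chat*, *Lrrtm4* and *Adora2a* step up from WT to HYP to PCC, *Homer1*, *Cnr1* and *P2rx5* step down, and *Nptx1* is lowest in HYP.

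The share of a gene in the summed FPKM of its family within a sample does not depend on how samples are scaled. It describes transcripts of listed genes in bulk tissue and not the makeup of a receptor protein. Of the summed FPKM of the 6 nicotinic subunits with values in all samples, *Chrna3* made up 53.2 to 58.4% in WT replicates 1 to 4 and 26.2% in WT replicate 5, 44.6 to 51.6% in HYP and 41.0 to 52.5% in PCC. *Chrnb4* took 21.9 to 27.3% in WT, 27.5 to 32.1% in HYP and 15.7 to 26.6% in PCC, so its share was higher in each HYP sample than in any WT or PCC sample. The share of *Chrnb2* was 1.89 to 3.34%, 1.87 to 2.86% and 3.54 to 7.32%, with all PCC samples above the rest. *Chrna7* made up 11.1 to 14.3% in WT replicates 1 to 4 and 30.7% in WT replicate 5, 10.7 to 18.1% in HYP and 17.3 to 29.7% in PCC. Shares are descriptions with no test, and a difference between genes depends on the gene length the authors used. For 28 synaptic genes, among them *Chrna3*, *Chrna5* and *Chrna7*, that length was shorter than the one listed beside the counts, by a factor that is the same in every sample.

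**Figure D5:**
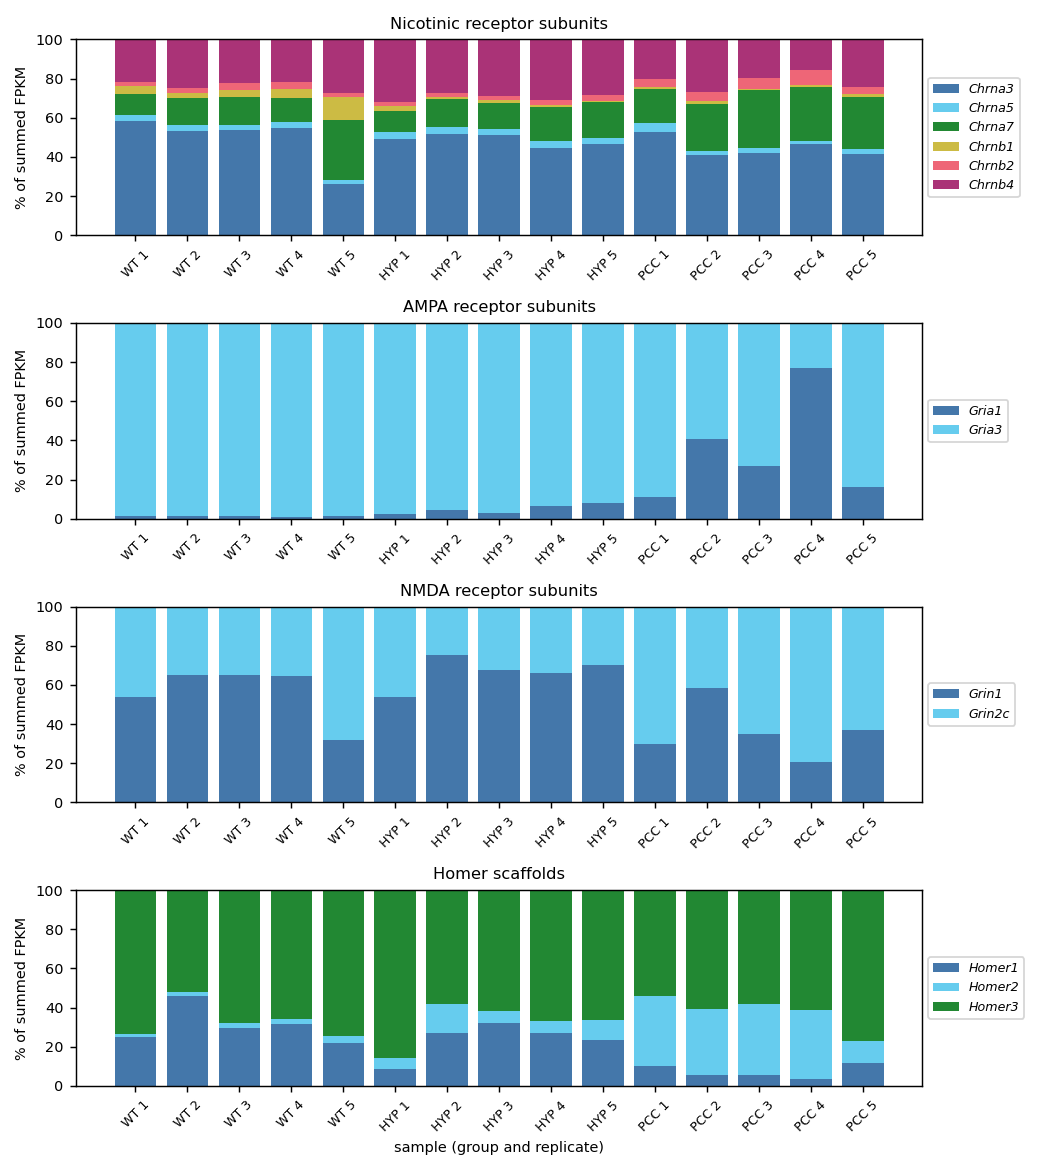
Share of each gene in the summed FPKM of its family in every sample, for nicotinic, AMPA and NMDA receptor subunits and Homer scaffolds with values in all 15 samples (stacked bars that add to 100%). *Gria1* takes at most 1.67% of *Gria1* and *Gria3* in WT and 10.9 to 77.0% in PCC, and *Homer2* takes 1.62 to 3.5% of the Homer genes in WT and 11.1 to 36.3% in PCC.

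Ionotropic glutamate receptors carry fast excitation, through AMPA (Gria), NMDA (Grin) and kainate (Grik) subunits. Among glutamate receptor genes, 4 of 6 tested were higher and 1 lower in PCC than in WT, beside 46.7% and 38.5% of all listed genes tested. For HYP vs. WT, 2 of 4 were higher and 1 lower in HYP, beside 39.5% and 32.5%. For PCC vs. HYP, 2 of 6 were higher and 0 lower in PCC, beside 21.8% and 22.6%. *Grin2c*, an NMDA receptor subunit, was at 39.4, 30.4, 27.8, 20.3 and 30.2 for the WT rats, 77.6, 26.0, 31.5, 53.2 and 48.0 for the HYP rats and 312, 128, 326, 645 and 199 for the PCC rats, in CPM. Every PCC sample was above every other sample, 10.6-fold above WT (log2 fold change 3.40 ± 0.41, adjusted *p* = 0.000235) and 6.29-fold above HYP (log2 fold change 2.65 ± 0.43, adjusted *p* = 0.00639). *Gria3*, an AMPA receptor subunit, fell. Its levels were 615, 547, 394, 464 and 285 for the WT rats, 257, 211, 365, 245 and 188 for the HYP rats and 165, 28.0, 87.2, 6.10 and 68.9 for the PCC rats, in CPM. It was lower in HYP (log2 fold change -0.92 ± 0.24, adjusted *p* = 0.0211), where HYP replicate 3 reached into the WT range, and 6.78-fold lower in PCC (log2 fold change -2.76 ± 0.66, adjusted *p* = 0.008), where no sample overlapped WT. Without PCC replicate 1 the log2 fold change for PCC vs. WT was -3.36 (adjusted *p* = 0.00368). PCC vs. HYP had no overlap but was not called (log2 fold change -1.90 ± 0.63, adjusted *p* = 0.0856). PCC replicates 4 and 2 had the lowest *Gria3* and the lowest sums of cortex markers (932 and 2960 CPM). WT replicates 1 and 2, in contrast, had the highest *Gria3* of WT and the lowest cortex sums of WT (28600 and 28200 CPM). The part of the cortex in this gene was not tested.

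*Gria1* moved opposite to *Gria3*, with 1.78 to 4.33 CPM in WT, 3.30 to 8.13 in HYP and 6.36 to 15.6 in PCC, and was higher in PCC than in WT (log2 fold change 1.69 ± 0.33, adjusted *p* = 0.00267) but not called for HYP vs. WT (0.90 ± 0.31, adjusted *p* = 0.0711). Of the summed FPKM of *Gria1* and *Gria3*, *Gria1* made up 0.997 to 1.67% in WT, 2.60 to 8.09% in HYP and 10.9 to 77.0% in PCC. These ranges did not overlap. Other AMPA subunit genes are not listed in the deposited tables, so these are not shares of all AMPA subunit RNA. *Grin1*, the obligatory NMDA receptor subunit, was higher in HYP (1.09 ± 0.30 on the log2 scale) and in PCC (1.87 ± 0.34) than in WT, and not called for PCC vs. HYP (0.67 ± 0.19, adjusted *p* = 0.0506). *Grin2c* made up 35.0 to 46.0% of the FPKM of *Grin1* and *Grin2c* in WT replicates 1 to 4 and 68.2% in WT replicate 5, 24.7 to 46.2% in HYP and 41.8 to 79.2% in PCC. *Grin3b* was listed for PCC vs. HYP only and not called (0.64 ± 0.26). The kainate receptor subunit *Grik5* was higher in PCC than in WT (1.87 ± 0.41) and than in HYP (0.81 ± 0.22), both without overlap. *Grid1*, of the delta family that binds cerebellins, was higher in HYP than in WT (1.52 ± 0.45) at 0.823 to 2.89 against 0.142 to 0.856 CPM, and not called for PCC vs. WT (1.31 ± 0.49). The metabotropic receptor *Grm7* had 19.5 to 27.8 CPM in HYP and 3.07 to 17.4 in PCC with no overlap, and was not called (-1.19 ± 0.38, adjusted *p* = 0.0732). *Gria3* lost its call for HYP vs. WT with all 15 samples in 1 fit or scaling to the library totals. *Grin1* lost its call for HYP vs. WT without WT replicate 4 or HYP replicate 5 (adjusted *p* up to 0.0706) and with the authors' size factors. *Grid1* lost its call for HYP vs. WT without WT replicate 1, 3, 4 or 5 or HYP replicate 3, 4 or 5 (adjusted *p* up to 0.0965) and with all 15 samples in 1 fit or the authors' size factors. *Grik5* lost its call for PCC vs. HYP without HYP replicate 1, 2, 3, 4 or 5 or PCC replicate 2, 3, 4 or 5 (adjusted *p* up to 0.11) and with all 15 samples in 1 fit. *Gria1* was called for HYP vs. WT without HYP replicate 1 (adjusted *p* = 0.0221). *Gria3* was called for PCC vs. HYP without PCC replicate 1 or 4 (adjusted *p* = 0.0332 and 0.0448). *Grin1* was called for PCC vs. HYP without PCC replicate 5 (adjusted *p* = 0.0307). *Grid1* was called for PCC vs. WT without WT replicate 2 or PCC replicate 4 or 5 (adjusted *p* = 0.0436, 0.0451 and 0.0374). *Grm7* was called for PCC vs. HYP without PCC replicate 1 or 4 (adjusted *p* = 0.0307 and 0.0428).

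Too few reads were counted to test 2 further glutamate receptor genes. *Grik1* had 5, 41, 6, 4 and 7 counts in PCC replicates 1 to 5 and 2 counts in all of WT and in all of HYP. Its summed counts relative to library size were 26.1 times those of WT (95% exact counting interval 6.92 to 220.0), and 41 of the 63 PCC counts came from replicate 2. *Grik3* had 2, 7, 5, 3 and 0 counts in WT and 11, 27, 8, 40 and 62 in HYP. Intervals and floors cover counting error only.

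GABA acts on chloride channels and on the metabotropic GABA-B receptor, and glycine receptors are chloride channels related to the first. *Gabbr1*, a subunit of the GABA-B receptor, was at 110.2 to 152 CPM in WT and 162 to 283 in PCC and was higher in PCC (log2 fold change 0.66 ± 0.21, adjusted *p* = 0.0287). *Gabra3*, a channel subunit listed for HYP vs. WT only, was at 0.0962 to 0.711 CPM in WT and 0.951 to 1.87 in HYP and was higher in HYP (log2 fold change 1.70 ± 0.43, adjusted *p* = 0.0184). *Gabrg3*, another channel subunit, had 0 counts in all WT samples and 1, 2, 0, 10 and 4 in HYP, at least 1.17-fold higher against a floor of 3 counts per library. *Glrb*, the beta subunit of the glycine receptor, was at 22.2 to 35.7 CPM in WT, 15.2 to 26.8 in HYP and 6.81 to 14.8 in PCC, and was lower in HYP (log2 fold change -0.69 ± 0.20, adjusted *p* = 0.0379) and in PCC (log2 fold change -1.54 ± 0.25, adjusted *p* = 0.00101) than in WT. It did not reach the threshold for PCC vs. HYP (-0.95 ± 0.29, adjusted *p* = 0.0645). *Glra4*, an alpha subunit, was not called for PCC vs. WT (-1.83 ± 0.67, adjusted *p* = 0.0572) or PCC vs. HYP (-1.73 ± 0.65, adjusted *p* = 0.133). *Gabbr1* lost its call for PCC vs. WT without WT replicate 3, 4 or 5 or PCC replicate 2 (adjusted *p* up to 0.0777). *Gabra3* lost its call for HYP vs. WT without WT replicate 3 or 4 (adjusted *p* up to 0.0505). *Glrb* lost its call for HYP vs. WT without WT replicate 1, 2 or 3 or HYP replicate 1, 4 or 5 (adjusted *p* up to 0.116) and with all 15 samples in 1 fit or scaling to the library totals. *Glra4* was called for PCC vs. WT without WT replicate 2 or PCC replicate 1 (adjusted *p* = 0.0469 and 0.00429). *Glra4* was called for PCC vs. HYP without PCC replicate 1 (adjusted *p* = 0.0147). *Glrb* was called for PCC vs. HYP without PCC replicate 1 (adjusted *p* = 0.0399).

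Monoamine receptors respond to the chromaffin cell's own catecholamines, to serotonin and to histamine. Of these genes, 4 of 6 tested were higher and 1 lower in PCC than in WT, beside 46.7% and 38.5% of all listed genes tested. For HYP vs. WT, 4 of 4 were higher in HYP, beside 39.5%. For PCC vs. HYP, 3 of 5 were higher and 1 lower in PCC, beside 21.8% and 22.6%. *Adra1d*, an alpha-1 adrenergic receptor, was at 14.5, 11.4, 28.9, 23.1 and 27.9 for the WT rats, 16.9, 4.94, 10.5, 19.1 and 16.0 for the HYP rats and 3.78, 1.31, 7.11, 1.42 and 10.6 for the PCC rats, in CPM. PCC was below WT in every sample (log2 fold change -2.15 ± 0.55, adjusted *p* = 0.0112), and PCC vs. HYP was not called (log2 fold change -1.56 ± 0.58, adjusted *p* = 0.128). PCC replicates 2 and 4, those with the lowest cortex sums, were at the bottom. WT replicates 1 and 2, lowest in cortex sums within WT, were also lowest in *Adra1d* within WT. The part of the cortex in this gene was not tested. *Adra2c*, an alpha-2 autoreceptor that restrains catecholamine release, was at 1.40, 0.907, 1.16, 0.501 and 0 for the WT rats, 4.82, 4.67, 2.77, 3.83 and 5.89 for the HYP rats and 1.19, 14.5, 3.56, 2.27 and 8.38 for the PCC rats, in CPM. HYP was above WT without overlap (log2 fold change 2.36 ± 0.52, adjusted *p* = 0.0101), while PCC was higher on average (log2 fold change 2.83 ± 0.83, adjusted *p* = 0.0219) but spread from the WT range to 14.5 CPM. Without PCC replicate 2 the log2 fold change for PCC vs. WT was 2.18 (adjusted *p* = 0.061). *Adra2b*, listed for HYP vs. WT, was higher in HYP (1.34 ± 0.29). *Adrb1*, the beta-1 receptor, was at 0 to 1.56 CPM in WT, 0.299 to 0.824 in HYP and 1.5 to 12.4 in PCC, and was higher in PCC than in WT (log2 fold change 2.43 ± 0.85, adjusted *p* = 0.0475) and than in HYP (log2 fold change 2.63 ± 0.65, adjusted *p* = 0.0312). PCC replicate 4 held the highest value, and without it the log2 fold changes were 1.44 (adjusted *p* = 0.179) and 1.68 (adjusted *p* = 0.0364). *Drd2*, the inhibitory dopamine receptor, rose in PCC against WT (1.54 ± 0.50) and HYP (0.69 ± 0.18), from 4.05 to 50.4 CPM in WT and 41.1 to 70.1 in HYP to 80.0 to 114 in PCC. *Hrh3*, a histamine receptor, was not called for PCC vs. WT (1.49 ± 0.54, adjusted *p* = 0.0533). *Adra2c* lost its call for PCC vs. WT without WT replicate 4 or PCC replicate 2 (adjusted *p* up to 0.061). *Adrb1* lost its call for PCC vs. WT without WT replicate 1, 3, 4 or 5 or PCC replicate 3 or 4 (adjusted *p* up to 0.179) and with the authors' size factors. *Drd2* lost its call for PCC vs. WT without WT replicate 3 or 4 or PCC replicate 2, 3 or 4 (adjusted *p* up to 0.0836). *Adrb1* lost its call for PCC vs. HYP without HYP replicate 1, 2, 3, 4 or 5 or PCC replicate 3 (adjusted *p* up to 0.0938). *Drd2* lost its call for PCC vs. HYP without HYP replicate 1, 3, 4 or 5 or PCC replicate 1, 2, 3 or 4 (adjusted *p* up to 0.109) and with all 15 samples in 1 fit. *Adra1d* was called for PCC vs. HYP without PCC replicate 5 (adjusted *p* = 0.0392). *Hrh3* was called for PCC vs. WT without PCC replicate 1 (adjusted *p* = 0.0279).

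Among serotonin receptors, *Htr3a*, the ion channel of this family, was at 0.769, 0.907, 0.369, 2.63 and 0.711 for the WT rats, 2.03, 1.59, 0.709, 1.74 and 1.30 for the HYP rats and 6.01, 25.5, 9.08, 5.96 and 4.25 for the PCC rats, in CPM. PCC was above WT (log2 fold change 3.22 ± 0.65, adjusted *p* = 0.0032) and HYP (log2 fold change 2.68 ± 0.52, adjusted *p* = 0.0131) in every sample. PCC replicate 2 was highest, and without it the log2 fold changes were 2.52 (adjusted *p* = 0.00558) against WT and 2.0 (adjusted *p* = 0.0134) against HYP; without WT replicate 4 the first was 3.84 (adjusted *p* = 0.00251). *Htr1b*, an inhibitory receptor, peaked in HYP. It was at 0.721, 1.96, 0.791, 0.814 and 0.711 for the WT rats, 2.66, 5.76, 3.16, 5.92 and 5.34 for the HYP rats and 1.64, 1.99, 1.97, 0.851 and 2.49 for the PCC rats, in CPM. HYP lay above all WT samples (log2 fold change 2.12 ± 0.36, adjusted *p* = 0.00295) and above all PCC samples (for PCC vs. HYP, log2 fold change -1.44 ± 0.36, adjusted *p* = 0.0319). *Htr2a*, which is coupled to calcium release, was higher in HYP than in WT (log2 fold change 3.24 ± 0.62, adjusted *p* = 0.00521), with 14, 26, 9, 16 and 16 counts in HYP against 1, 6, 0, 0 and 1 in WT. Without WT replicate 2 this log2 fold change was 4.64 (adjusted *p* = 0.00118). In PCC it had 26, 82, 53, 5 and 40 counts, and PCC vs. WT was not tested because of low counts. *Htr6* had 9, 12, 33, 170 and 9 counts in PCC replicates 1 to 5, 9 in all of WT and 5 in all of HYP, and replicate 4 held 170 of the 233 PCC counts. Relative to library size this was 37.3 times HYP (95% exact counting interval 15.8 to 116). *Htr1a* had 6, 12, 15, 11 and 7 counts in WT, 5, 2, 2, 0 and 4 in HYP and 10, 1, 3, 0 and 6 in PCC and was not tested. *Adra1b*, also untested, had 1, 6, 2, 4 and 1 counts in WT, 0, 3, 1, 0 and 0 in HYP and 8, 7, 13, 14 and 12 in PCC, which is 10.8 times HYP relative to library size (95% exact counting interval 3.99 to 41.1). Of the summed FPKM of *Adra1b* and *Adra1d* it made up at most 3.79% in WT and HYP and 5.43 to 35.6% in PCC. *Htr1b* lost its call for PCC vs. HYP without HYP replicate 2, 3, 4 or 5 or PCC replicate 2 or 3 (adjusted *p* up to 0.0828) and with scaling to the library totals.

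Of the 11 receptors for purines and cannabinoids, 5 of 9 tested were higher (55.6%) and 3 lower (33.3%) in PCC than in WT. Of all listed genes tested, 46.7% were higher and 38.5% lower, which is close to these shares. For HYP vs. WT, 4 of 6 were higher and 0 lower in HYP, beside 39.5% and 32.5% of all listed genes tested. For PCC vs. HYP, 1 of 7 was higher and 3 lower in PCC, beside 21.8% and 22.6%. *Adora2a*, the adenosine receptor that stimulates cyclic AMP, had the largest fitted fold change for PCC vs. WT among the synaptic genes tested. *Adora2a* (ENSRNOG00000001302, chr20:14265252-14282873 in Rn06) was at 4.76, 3.78, 3.43, 21.4 and 3.34 for the WT rats, 36.8, 14.3, 21.7, 25.3 and 21.9 for the HYP rats and 484, 446, 719.5, 1877 and 276 for the PCC rats, in CPM. All PCC samples were far above all others, 101-fold above WT (log2 fold change 6.66 ± 0.82, adjusted *p* = 0.00027) and 29.0-fold above HYP (log2 fold change 4.86 ± 0.53, adjusted *p* = 0.00157). With a median of 213 FPKM in PCC, against 9.36 in HYP and 1.48 in WT, it had the highest level per length of all synaptic genes in PCC. PCC replicate 4 was the highest, and without it the log2 fold changes were 6.0 (adjusted *p* = 0.00027) and 4.22 (adjusted *p* = 0.000395). WT replicate 4 was inside the range of HYP, and the difference between HYP and WT just passed the threshold (log2 fold change 1.66 ± 0.52, adjusted *p* = 0.0465). Without WT replicate 4 the log2 fold change was 2.57 (adjusted *p* = 0.000824) for HYP vs. WT and 7.58 (adjusted *p* = 0.000442) for PCC vs. WT. *Adora2a* lost its call for HYP vs. WT without WT replicate 1, 2, 3 or 5 or HYP replicate 1, 2, 3, 4 or 5 (adjusted *p* up to 0.114) and with all 15 samples in 1 fit or the authors' size factors.

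*Adora2b*, a related adenosine receptor, was also higher in both, at 0.498 to 1.44 CPM in WT, 3.43 to 6.70 in HYP (log2 fold change 2.21 ± 0.31, adjusted *p* = 0.00111) and 5.15 to 12.8 in PCC (log2 fold change 2.92 ± 0.40, adjusted *p* = 0.000464). *Adora1*, the inhibitory adenosine receptor, was listed for PCC vs. HYP and not called (log2 fold change -1.26 ± 0.48, adjusted *p* = 0.138), at 11.9 to 27.6 CPM in HYP and 1.42 to 12.1 in PCC. ATP and ADP act on P2X channels and P2Y receptors. *P2ry12*, an inhibitory ADP receptor, had the second highest level per length in PCC with a median of 161 FPKM. It was at 8.46 to 62.5 CPM in WT, 112 to 163 in HYP and 157 to 232 in PCC, higher in HYP (log2 fold change 1.66 ± 0.38, adjusted *p* = 0.0118) and in PCC (log2 fold change 2.26 ± 0.43, adjusted *p* = 0.00238) than in WT and not called between them (0.50 ± 0.18). Its relative *P2ry13* was higher in HYP (1.30 ± 0.22) and in PCC (1.5 ± 0.25) than in WT. *P2ry12* and *P2ry13* are also known from microglia and macrophages. The 3 macrophage and leukocyte markers *Cd14*, *Cd163* and *Cd8a* (20 genes in the list) summed to 37.0 to 40.8 CPM in WT, 52.5 to 57.5 in HYP and 10.8 to 62.3 in PCC. They did not move alike, since *Cd163* was higher in PCC than in WT and *Cd14* and *Cd8a* were lower. *Cx3cr1*, outside the sum, was at 2.20 to 3.78 CPM in WT and 3.74 to 8.33 in PCC. The part of macrophages in *P2ry12* and *P2ry13* was not tested.

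Lower in PCC were *P2rx5*, *P2ry2* and *Cnr1*. *P2rx5*, an ATP-gated channel, was at 45.4, 32.0, 29.6, 13.2 and 8.18 for the WT rats, 18.6, 15.6, 12.8, 13.3 and 14.1 for the HYP rats and 7.43, 1.84, 4.58, 1.04 and 4.47 for the PCC rats, in CPM. PCC was below all WT and HYP samples, 6.96-fold below WT (log2 fold change -2.80 ± 0.59, adjusted *p* = 0.00414) and 4.05-fold below HYP (log2 fold change -2.02 ± 0.45, adjusted *p* = 0.0225). *Cnr1*, the cannabinoid receptor CB1, was at 85.7, 70.3, 66.6, 36.4 and 37.4 for the WT rats, 38.4, 53.7, 32.2, 32.8 and 28.6 for the HYP rats and 20, 8.49, 21.3, 16.8 and 24.4 for the PCC rats, in CPM. It was lower in PCC than in WT (log2 fold change -1.76 ± 0.33, adjusted *p* = 0.00221) and than in HYP (log2 fold change -1.13 ± 0.28, adjusted *p* = 0.033) in every sample, and not called for HYP vs. WT (log2 fold change -0.73 ± 0.26, adjusted *p* = 0.0807). *P2ry2*, an ATP and UTP receptor, was at 8.11 to 25.9 CPM in WT, 6.86 to 17.3 in HYP and 1.75 to 8.19 in PCC, and was lower in PCC than in WT (log2 fold change -1.95 ± 0.45, adjusted *p* = 0.00651) and than in HYP (log2 fold change -1.55 ± 0.41, adjusted *p* = 0.0414). PCC replicates 2 and 4, lowest in *P2rx5* and *P2ry2*, had the lowest cortex sums. WT replicates 1 and 2 had the lowest cortex sums of WT (28600 and 28200 CPM). They had the highest *P2rx5* of WT (45.4 and 32.0 CPM) but the lowest *P2ry2* of WT (8.80 and 8.11 CPM). The part of the cortex in these genes was not tested. *P2rx6* was higher in PCC (1.46 ± 0.41 on the log2 scale). *P2rx2* was not called for PCC vs. HYP (1.81 ± 0.71, adjusted *p* = 0.161), nor *P2ry4* for HYP vs. WT (-0.54 ± 0.22, adjusted *p* = 0.139) or PCC vs. WT (-0.80 ± 0.32, adjusted *p* = 0.0815). *P2rx6* lost its call for PCC vs. WT without WT replicate 3 or 4 (adjusted *p* up to 0.0506). *P2rx5* lost its call for PCC vs. HYP without HYP replicate 3 or 4 (adjusted *p* up to 0.0529). *Cnr1* lost its call for PCC vs. HYP without HYP replicate 1, 2, 3, 4 or 5 or PCC replicate 3 or 4 (adjusted *p* up to 0.0764) and with scaling to the library totals. *P2ry2* lost its call for PCC vs. HYP without HYP replicate 1, 3, 4 or 5 or PCC replicate 2 or 5 (adjusted *p* up to 0.104) and with scaling to the library totals. *Cnr1* was called for HYP vs. WT without WT replicate 4 or 5 or HYP replicate 2 (adjusted *p* = 0.0442, 0.0249 and 0.0353). *P2rx2* was called for PCC vs. HYP without PCC replicate 4 (adjusted *p* = 0.0479). *P2ry4* was called for PCC vs. WT without PCC replicate 1 (adjusted *p* = 0.04). *P2ry4* was called for HYP vs. WT without HYP replicate 1 (adjusted *p* = 0.0407).

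Of the 22 scaffold and organizer genes, 12 of 18 tested were higher and 3 lower in PCC than in WT. Of all listed genes tested, 46.7% were higher and 38.5% lower. For HYP vs. WT, 10 of 14 were higher and 1 lower in HYP, beside 39.5% and 32.5%. For PCC vs. HYP, 3 of 9 were higher and 1 lower in PCC, beside 21.8% and 22.6%. Homer scaffolds tie metabotropic glutamate receptors to calcium stores. In PCC against WT, *Homer1* and *Homer3* were lower and *Homer2* was higher. *Homer1* was at 12.6, 27.4, 14.7, 19.7 and 19.0 for the WT rats, 3.30, 8.18, 14.4, 12.5 and 9.43 for the HYP rats and 2.83, 0.825, 2.20, 1.14 and 4.30 for the PCC rats, in CPM. It was 8.46-fold lower in PCC than in WT (log2 fold change -3.08 ± 0.43, adjusted *p* = 0.000499) without overlap, lower than in HYP (log2 fold change -2.16 ± 0.50, adjusted *p* = 0.0247) with HYP replicate 1 inside the PCC range, and not called for HYP vs. WT (log2 fold change -1.01 ± 0.34, adjusted *p* = 0.0661). PCC replicates 2 and 4 were again the lowest samples, as in the cortex markers. WT replicates 1 and 2, both low in cortex sums within WT, had the lowest and the highest *Homer1* of WT. The part of the cortex was not tested. *Homer2*, at 1.20 to 4.48 CPM in WT, 2.92 to 6.75 in HYP and 5.89 to 20.4 in PCC, was higher in PCC than in WT (log2 fold change 2.52 ± 0.42, adjusted *p* = 0.00119) and than in HYP (log2 fold change 1.36 ± 0.37, adjusted *p* = 0.0441), and not called for HYP vs. WT (1.01 ± 0.36, adjusted *p* = 0.081). *Homer3* was lower in PCC than in WT (log2 fold change -1.15 ± 0.28, adjusted *p* = 0.00793) and not called for HYP vs. WT (-0.67 ± 0.22). Of the FPKM of the 3 genes, *Homer1* made up 21.9 to 46.0% in WT, 8.83 to 32.3% in HYP and 3.40 to 11.9% in PCC, and *Homer2* 1.62 to 3.5%, 5.29 to 15.0% and 11.1 to 36.3%. This family was added to the shares after its values were seen.

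Dlg proteins anchor receptors by their PDZ domains. *Dlg4*, the gene of PSD-95, was higher in HYP (log2 fold change 0.76 ± 0.18, adjusted *p* = 0.0151) and in PCC (log2 fold change 1.49 ± 0.21, adjusted *p* = 0.000478) than in WT, from 46.3 to 75.5 CPM in WT to 72.8 to 123 in HYP and 134 to 247 in PCC, and not called for PCC vs. HYP (0.59 ± 0.20). *Dlg3*, listed for HYP vs. WT, was higher in HYP (0.61 ± 0.19), and *Dlg1* was not called for PCC vs. WT (-0.35 ± 0.14). Dlgap proteins link *Dlg4* to Shank proteins. *Dlgap2* was higher in HYP (1.46 ± 0.43) and in PCC (1.60 ± 0.48) than in WT, whereas *Dlgap4* was lower in PCC (-1.11 ± 0.27) and missed the threshold for PCC vs. HYP (-0.69 ± 0.20, adjusted *p* = 0.0505). *Shank1* (1.62 ± 0.39) and *Shank2* (1.95 ± 0.67), master scaffolds of the excitatory synapse, were higher in PCC than in WT, and *Shank1* was not called for PCC vs. HYP (0.96 ± 0.30). *Dlgap2* lost its call for PCC vs. WT without WT replicate 1 or 4 or PCC replicate 3 (adjusted *p* up to 0.0622). *Shank2* lost its call for PCC vs. WT without WT replicate 1, 3 or 5 or PCC replicate 1, 3 or 4 (adjusted *p* up to 0.11) and with the authors' size factors. *Dlg3* lost its call for HYP vs. WT without WT replicate 3, 4 or 5 or HYP replicate 2, 4 or 5 (adjusted *p* up to 0.113) and with the authors' size factors or scaling to the library totals. *Dlg4* lost its call for HYP vs. WT without HYP replicate 5 (adjusted *p* up to 0.0509). *Dlgap2* lost its call for HYP vs. WT without WT replicate 1 or 4 or HYP replicate 2, 4 or 5 (adjusted *p* up to 0.0928) and with the authors' size factors or scaling to the library totals. *Homer1* lost its call for PCC vs. HYP without HYP replicate 3, 4 or 5 or PCC replicate 3 (adjusted *p* up to 0.0721). *Homer2* lost its call for PCC vs. HYP without HYP replicate 1, 2, 3, 4 or 5 or PCC replicate 1, 3 or 4 (adjusted *p* up to 0.122). *Homer1* was called for HYP vs. WT without HYP replicate 3 (adjusted *p* = 0.0468). *Homer2* was called for HYP vs. WT without WT replicate 5 (adjusted *p* = 0.00634). *Homer3* was called for HYP vs. WT without WT replicate 2 (adjusted *p* = 0.0442). *Dlgap4* was called for PCC vs. HYP without PCC replicate 1 (adjusted *p* = 0.027). *Shank1* was called for PCC vs. HYP without PCC replicate 5 (adjusted *p* = 0.0379).

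*Lrrtm4*, a postsynaptic adhesion protein that binds neurexins and heparan sulfate proteoglycans, was called higher in all 3 comparisons, as was *Adora2a*. *Lrrtm4* (ENSRNOG00000021938, chr4:110699557-110704822 in Rn06) was at 0.288, 0.957, 0.264, 1.00 and 0.925 for the WT rats, 2.79, 2.69, 3.03, 2.21 and 2.75 for the HYP rats and 37.9, 17.6, 27.0, 42.2 and 13.2 for the PCC rats, in CPM. The 3 groups did not overlap, with 3.81-fold more in HYP than in WT (log2 fold change 1.93 ± 0.37, adjusted *p* = 0.00494), 9.51-fold more in PCC than in HYP (log2 fold change 3.25 ± 0.33, adjusted *p* = 0.00133) and 39.6-fold more in PCC than in WT (log2 fold change 5.31 ± 0.50, adjusted *p* = 9.87e-05). Its call held with each sample left out in turn in all 3 comparisons. Its promoter window, printed as that of a gene which stepped up in each stage, is chr4:114104380-114104679 on the plus strand of GRCr8, from RefSeq, and holds no GC box, so it has no capitals.
Lrrtm4: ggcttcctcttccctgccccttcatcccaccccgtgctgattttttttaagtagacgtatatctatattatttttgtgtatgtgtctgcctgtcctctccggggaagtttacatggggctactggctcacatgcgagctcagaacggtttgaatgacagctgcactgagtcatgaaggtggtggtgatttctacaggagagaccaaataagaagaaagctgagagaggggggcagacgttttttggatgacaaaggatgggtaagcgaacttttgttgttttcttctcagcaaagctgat
*Lrrtm2* was higher in PCC (1.70 ± 0.50 on the log2 scale) and *Lrrtm3* in HYP (1.67 ± 0.40) than in WT, the only comparisons that list them. *Lrrtm2* was at 1.56 to 5.97 CPM in PCC and *Lrrtm3* at 1.93 to 3.59 CPM in HYP. *Lrrtm2* lost its call for PCC vs. WT without WT replicate 3 or 4 or PCC replicate 2 (adjusted *p* up to 0.0607).

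Cerebellins are secreted and bridge neurexins to delta glutamate receptors. *Cbln1* was at 0.192, 0.0504, 0.264, 0.501 and 0.142 for the WT rats, 2.22, 5.05, 4.58, 3.25 and 4.54 for the HYP rats and 1.09, 36.5, 2.99, 8.84 and 7.13 for the PCC rats, in CPM. It was near 0 in WT (1 to 8 counts per sample), 16.3-fold higher in HYP (log2 fold change 4.03 ± 0.44, adjusted *p* = 0.000307) and 48.6-fold higher in PCC (log2 fold change 5.60 ± 1.00, adjusted *p* = 0.00166), each without overlap with WT. PCC replicate 2 was highest, and without it the log2 fold change for PCC vs. WT was 4.41 (adjusted *p* = 0.0019). *Grid2ip*, whose protein binds the delta-2 glutamate receptor, was close to 0 in WT and highest in HYP. It was at 0.433, 0.353, 0.264, 0.250 and 0 for the WT rats, 7.67, 21.9, 11.5, 4.53 and 11.9 for the HYP rats and 1.28, 10.3, 8.79, 4.45 and 9.24 for the PCC rats, in CPM. All HYP and PCC samples were above all WT samples, with a log2 fold change of 5.31 ± 0.56 for HYP (adjusted *p* = 0.00026) and 4.58 ± 0.70 for PCC (adjusted *p* = 0.000746). *Cbln4* had 1 count in all WT samples together, 2, 37, 21, 14 and 36 in the HYP samples and 5, 98, 8, 2 and 29 in the PCC samples. Relative to library size these were 114 times (95% exact counting interval 20 to 4530) and 117 times WT (20.7 to 4670), with no test. *Cbln2* was not called for PCC vs. WT (log2 fold change -2.0 ± 0.93, adjusted *p* = 0.143), with 1.20 to 44.5 CPM in WT, where replicate 5 was highest, and 0.804 to 8.88 in PCC. *Cbln2* was called for PCC vs. WT without PCC replicate 1 (adjusted *p* = 0.045).

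Neurexins sit on the presynaptic side and neuroligins opposite. *Nrxn2* was higher in HYP than in WT (log2 fold change 1.34 ± 0.27, adjusted *p* = 0.00683) and not called for PCC vs. HYP (log2 fold change -1.04 ± 0.31, adjusted *p* = 0.0584), at 2.21 to 5.59, 7.80 to 12.8 and 3.55 to 10.2 CPM in WT, HYP and PCC. *Nlgn2*, the neuroligin of inhibitory synapses, was higher in PCC than in WT (log2 fold change 1.56 ± 0.37, adjusted *p* = 0.00738) and not called for PCC vs. HYP (0.96 ± 0.28, adjusted *p* = 0.0562). Pentraxins cluster AMPA receptors. *Nptx1* was at 7.02, 5.74, 3.64, 4.07 and 1.07 for the WT rats, 0.571, 0.494, 1.42, 1.68 and 1.35 for the HYP rats and 8.97, 11, 8.70, 74.5 and 3.78 for the PCC rats, in CPM. It was lower in HYP than in WT (log2 fold change -2.02 ± 0.48, adjusted *p* = 0.0145), with WT replicate 5 inside the HYP range, and 17.5-fold higher in PCC than in HYP (log2 fold change 4.13 ± 0.80, adjusted *p* = 0.0134), while PCC vs. WT was not called (log2 fold change 2.25 ± 0.80, adjusted *p* = 0.0513). PCC replicate 4 was far above the others, and without it the log2 fold change for PCC vs. HYP was 2.77 (adjusted *p* = 0.00454). *Nptxr*, the membrane-bound pentraxin receptor, was higher in HYP (0.68 ± 0.20) and in PCC (0.93 ± 0.21) than in WT. *Nptx1* made up 7.62 to 40.3% of the FPKM of *Nptx1* and *Nptxr* in WT, 2.32 to 6.82% in HYP and 13.9 to 70.9% in PCC. *Nptx1* lost its call for HYP vs. WT with all 15 samples in 1 fit. *Nptxr* lost its call for HYP vs. WT without WT replicate 1 or 2 or HYP replicate 2, 4 or 5 (adjusted *p* up to 0.124) and with the authors' size factors. *Nptx1* was called for PCC vs. WT without PCC replicate 1, 3 or 5 (adjusted *p* = 0.0472, 0.0496 and 0.0261). *Nrxn2* was called for PCC vs. HYP without PCC replicate 5 (adjusted *p* = 0.00541). *Nlgn2* was called for PCC vs. HYP without PCC replicate 5 (adjusted *p* = 0.0352).

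Genes that work beside these receptors were counted from lists. Of 74 receptor partners and other synaptic adhesion genes, 47 were listed. In PCC, 27 of 40 tested were higher and 8 lower than in WT (median log2 fold change 1.36), beside 46.7% higher and 38.5% lower of all genes tested (median 0.44). In HYP, 22 of 30 were higher and 5 lower than in WT (median 1.30), beside 39.5% and 32.5% of all listed genes tested (median -0.37). Between the MENX groups, 7 of 16 were higher and 3 lower in PCC than in HYP (median 0.96), beside 21.8% and 22.6% (median 0.43). Partners of AMPA receptors moved both ways, since *Cnih3* was lower in PCC than in WT (log2 fold change -1.92 ± 0.59, adjusted *p* = 0.0275). *Shisa7* was higher in HYP than in WT (log2 fold change 1.22 ± 0.19, adjusted *p* = 0.00205) and in PCC than in HYP (log2 fold change 1.62 ± 0.26, adjusted *p* = 0.00564). *Cacng2*, the gene of stargazin, was higher in HYP (log2 fold change 2.54 ± 0.44, adjusted *p* = 0.00307) and in PCC (log2 fold change 3.95 ± 0.55, adjusted *p* = 0.000464) than in WT. *Ric3*, a chaperone of nicotinic receptors, was higher in HYP (log2 fold change 0.99 ± 0.26, adjusted *p* = 0.0221) and in PCC (log2 fold change 1.52 ± 0.29, adjusted *p* = 0.00223), while *Lynx1*, which dampens nicotinic receptors, was lower in PCC (log2 fold change -1.55 ± 0.54, adjusted *p* = 0.0489). *C1ql1*, a relative of the cerebellins, was higher in PCC than in WT (log2 fold change 3.26 ± 0.54, adjusted *p* = 0.00116) and than in HYP (log2 fold change 1.42 ± 0.24, adjusted *p* = 0.00702). These genes were picked from the lists after their values were seen.

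Of 46 transmitter enzymes and transporters, 22 were listed. In PCC, 7 of 15 tested were higher and 6 lower than in WT (median log2 fold change 0.86), shares close to the 46.7% and 38.5% of all genes tested. In HYP, 5 of 10 were higher and 3 lower than in WT (median 0.74), beside 39.5% and 32.5% of all listed genes tested. Between the MENX groups, 2 of 10 were higher and 2 lower in PCC than in HYP (median -0.21), beside 21.8% and 22.6%. *Slc29a1*, a nucleoside transporter that carries adenosine, was higher in HYP (log2 fold change 1.53 ± 0.20, adjusted *p* = 0.000737) and in PCC (log2 fold change 1.99 ± 0.23, adjusted *p* = 0.000207) than in WT. *Dagla*, which makes the endocannabinoid 2-arachidonoylglycerol, was higher in PCC (log2 fold change 2.44 ± 0.44, adjusted *p* = 0.00179), and *Mgll*, which degrades it, was lower (log2 fold change -2.0 ± 0.46, adjusted *p* = 0.00651). The glycine transporters *Slc6a9* (log2 fold change -2.80 ± 0.31, adjusted *p* = 0.000147) and *Slc6a5* (log2 fold change -2.56 ± 0.63, adjusted *p* = 0.0092) were lower in PCC. These examples, too, were picked after their values were seen.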

How the data were processed

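Per the labels and the study's methods, the authors aligned reads to Rn06 with HISAT2 (2.0.5), counted them with featureCounts (1.5.0-p3), without strand, and tested genes with DESeq2. They deposited 1 table per pair of groups, each with raw read counts, a normalised signal (count divided by a size factor) and FPKM per sample. The deposited fold changes and p-values of the authors' tests were not used as results; the p-values and adjusted *p*-values of each table served to recover how many genes the authors had tested (18790 in PCC vs. WT, 18057 in the table of HYP vs. WT, and 17454 in that of PCC vs. HYP). Counts agreed between the tables.

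Counts of all listed genes were fitted for the 10 samples of each comparison with edgeR (4.0.16, R 4.3.3): TMM scaling over the listed genes, filterByExpr (682, 298 and 212 genes removed), the quasi-likelihood test, and Benjamini-Hochberg adjustment over the genes the authors had tested, with a threshold of 0.05. TMM on tables of called genes assumes that these balance. CPM were computed on 1 scale for all 15 samples over the 5492 genes listed for all of them, and fold changes within each comparison. FPKM were used for levels between genes and for shares. The fits were run on simulated counts with the same dispersion for every gene and a small set of changed genes, balanced up and down. The deposited tables hold only called genes, so the simulation does not show how TMM behaves on them. Each group held 5 samples by the labels, each named for 1 adrenal medulla.

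Genes were given by sample when they were the main nicotinic subunits, *Ache* or *Chat*, or among the 6 (PCC vs. WT) or 4 (other comparisons) called genes with the largest fold change in each direction, provided that they averaged 1 CPM or more and the groups did not overlap. The genes and lists were chosen with earlier results of these data known. Alternatives were DESeq2 (1.42.0), other scalings, no filter, adjustment over the listed genes alone, a replicate block, all 15 samples in 1 fit, and leaving out each sample. The labels do not say which PCC samples were advanced tumours, so PCC was not subdivided. Replicate numbers did not pair the samples. A few genes of the set count in the totals and are not reported here.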

Additional observations from a re-analysis of the deposited data

Results flagged for a closer look

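In each of 66 groups of 5 samples (22 synaptic genes given by sample, 3 groups each), the gap from the highest or lowest sample to its neighbour was divided by the range of the group, and 7 groups exceeded 0.71. Chance flags about 1 in 20 such groups. *Adora2a* was at 21.4 CPM in WT replicate 4, with 4.76 next, and at 1877 CPM in PCC replicate 4, with 719.5 next. *Cbln1* was at 36.5 CPM in PCC replicate 2 (next 8.84), and *Nptx1* at 74.5 CPM in PCC replicate 4 (next 11). *Htr3a* was at 2.63 CPM in WT replicate 4 (next 0.907) and at 25.5 CPM in PCC replicate 2 (next 9.08). *Htr1b* was at 1.96 CPM in WT replicate 2 (next 0.814). Of these 7 values, 4 belong to PCC replicates 2 and 4, which also had the lowest sums of cortex markers.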

How the results depend on the processing

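Over 2243 alternative fits of single synaptic genes, 1889 stayed on the same side of the threshold, 214 lost and 140 gained a call, and 0 changed direction. For PCC vs. WT, DESeq2 called 19 genes lower in place of 12. In place of the 4 genes lower in HYP than in WT, DESeq2 called 8, adjustment over the listed genes alone 10, 1 fit over all 15 samples 1, and scaling to the library totals 2. For PCC vs. HYP, the 16 calls (11 higher, 5 lower) became 29 with DESeq2 (13 lower), and 33 with adjustment over the listed genes alone (20 higher, 13 lower), while scaling to the library totals left 2 lower. The library totals moved the median log2 fold change of all genes by 0.29 (PCC vs. WT), by 0.19 in HYP vs. WT, and by 0.22 in PCC vs. HYP, where the authors' size factors moved it by 0.11, DESeq2 by -0.17 and 1 fit over all samples by 0.14.

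With 1 sample left out, PCC vs. WT had 40 to 50 calls (28 to 38 higher, 11 to 15 lower), HYP vs. WT 23 to 36 (20 to 31 higher, 3 to 6 lower) and PCC vs. HYP 5 to 19 (5 to 13 higher, 0 to 10 lower). The lowest PCC vs. HYP counts came without HYP replicate 3 or 4 (5 calls, 0 lower), and without PCC replicate 1 there were 19 calls with 10 lower. With the replicate number as a block, 32 genes were higher and 13 lower for PCC vs. WT, 23 and 4 for HYP vs. WT, and 5 and 1 (6 calls) for PCC vs. HYP. The deviations of same-numbered samples from their group means correlated with r of -0.175 to 0.279, so the block rests on a shared number only. Adjustment over the listed genes alone counts fewer tests by construction, and for the other settings the cause was not tested. Genes of few counts were limited by depth and given as counts.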
